A study of Mus musculus with 7 samples.

Results

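The replication-dependent histone genes encode the linker histone H1 and the core histones H2A, H2B, H3 and H4 that package newly made DNA. They were taken as every feature whose symbol begins with Hist1h, Hist2h, Hist3h or Hist4h, which gave 67 of the 32286 features counted: 6 H1, 18 H2A, 18 H2B, 12 H3 and 13 H4 genes. By cluster, 54 belong to Hist1 on mouse chromosome 13, 10 to Hist2 on chromosome 3, 2 to Hist3 on chromosome 11 and 1 to Hist4 on chromosome 6. Their mRNAs were measured by droplet single-cell RNA sequencing in 7 libraries of sorted double negative (DN) thymocytes, the immature T cell precursors that carry neither CD4 nor CD8. The first 5 libraries, DN3a, then DN3b γδ− and DN4 γδ−, then DN3b γδ+ and DN4 γδ+, came from pooled thymi of wild-type C57BL/6 mice. DN3a cells precede selection on a T cell receptor, DN3b γδ− and DN4 γδ− cells were sorted as αβ precursors without surface γδ receptor, and DN3b γδ+ and DN4 γδ+ cells carried it. The Lat-/- DN3 γδ− and Lat-/- DN3 γδint libraries came from mice that lack the signalling adaptor LAT and also carry a Trdc-H2BEGFP reporter that is not listed for the wild-type mice; it encodes a fusion of histone H2B to EGFP driven by the TCRδ constant gene. Development is largely blocked at DN3 in these mutants, and the effects of genotype and reporter cannot be told apart. All mice were 6 to 8 weeks old, and 500 splenic B cells were added to every library. Each group is 1 library, so no test between groups was possible, and every interval given is an exact 95% interval that covers counting error only.

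Replication-dependent histone genes are switched on when a cell copies its DNA. Their mRNAs are the only known cellular mRNAs of animals that mostly end without a poly(A) tail: the transcript is trimmed just after a short hairpin, the histone stem-loop, which the stem-loop binding protein SLBP holds. When DNA synthesis stops, these mRNAs are degraded rapidly. A few members can also be read through to a downstream polyadenylation signal, and polyadenylated forms of this kind are known from non-dividing and differentiating cells. The libraries were primed with poly(dT), so they register tailed or A-rich transcripts and not the bulk of stem-loop-ended histone mRNA.

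The stem-loop is the sequence all of this turns on, and 46 of the 67 members (68.7%) held it downstream of the stop codon in the GENCODE vM21 transcript models (GRCm38). Other protein-coding genes were searched over the whole transcript, and 21 of 21834 (0.0962%) held it. Among the other 21 members, 13 have models that end at the stop codon and could not show it. The hairpin began 22 to 59 bases after the stop codon, with a median of 32. The commonest spelling, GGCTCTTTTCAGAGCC, was carried by 26 members from H1, H2A, H2B and H3. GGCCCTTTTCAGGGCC was found in 7 members, all of them H4, and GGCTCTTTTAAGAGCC in 6 members of H1, H2B and H3. The sequences below are transcript strand, 5′ to 3′, with the hairpin in capitals and up to 7 flanking bases on each side in lower case. They are shown for members whose values are described further on.
Hist1h2ap: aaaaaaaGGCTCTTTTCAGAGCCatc
Hist1h2ae: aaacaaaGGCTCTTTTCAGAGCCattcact
Hist1h3c: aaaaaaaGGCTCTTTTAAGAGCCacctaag
Hist1h4d: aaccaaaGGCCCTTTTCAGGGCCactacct
Hist1h1c: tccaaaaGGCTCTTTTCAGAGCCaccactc
Hist3h2a: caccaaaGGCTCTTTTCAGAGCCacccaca
Hist1h2ap and Hist3h2a share the same hairpin letters, and they lay on opposite sides of equal levels when cycling and non-cycling cells were compared. They differ in what follows it: the Hist1h2ap model ends 3 bases past the hairpin, while that of Hist3h2a runs on for 1643 bases and that of Hist1h1c for 840. The model of Hist1h4d runs on too, for 770 bases, although its median log2 ratio of cycling over non-cycling level was 1.70.

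The files held 90016 barcodes, of which 79076 had at least 200 genes and at most 15% mitochondrial UMIs, and 71081 of these had at most 1 UMI of the B cell genes Cd79a, Cd79b and Ms4a1 and were taken as thymocytes. A barcode with at least 2 UMIs of the proliferation genes Mki67 and Top2a was called cycling (40997 in all) and one with none non-cycling (22068). Cycling barcodes made up 6.16% of the thymocyte barcodes of DN3a, 88.4% of DN3b γδ−, 83.6% of DN4 γδ−, 80.8% of DN3b γδ+, 18.4% of DN4 γδ+, 8.87% of Lat-/- DN3 γδ− and 23.3% of Lat-/- DN3 γδint. They were also deeper, with medians of 12113 to 19996 UMIs against 4438.5 to 7658 in non-cycling barcodes. Of 89086 distinct barcode sequences, 925 (1.04%) occurred in more than 1 library. Levels are given as CPM, the UMIs of a gene per 1000000 UMIs of a class of barcodes. Lat itself stood at 357 to 648 CPM in the wild-type libraries and at 4.83 and 0.899 CPM in the Lat-/- DN3 γδ− and Lat-/- DN3 γδint libraries. Summed T cell markers ranged from 2296 to 9695 CPM, and erythroid markers reached 170 CPM in DN4 γδ− against 0.149 to 35.7 CPM in the other libraries. Doublets were not called. The added B cells, 919 barcodes called B-like over all libraries, were used as the background measured in cells of another type.

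Summed over the 67 genes, histone transcripts took up more of the mRNA of cycling than of non-cycling thymocytes in every library. The cycling level was 1137 CPM for DN3a, 1771 for DN3b γδ−, 2944 for DN4 γδ−, 2095 for DN3b γδ+, 2387 for DN4 γδ+, 1469 for Lat-/- DN3 γδ− and 852 for Lat-/- DN3 γδint. The non-cycling level was 964, 652, 1241, 617, 549, 789 and 612 CPM in the same order. The ranges of the groups overlapped, since non-cycling barcodes of DN4 γδ− lay above cycling barcodes of DN3a and Lat-/- DN3 γδint. B-like barcodes of the same libraries had 451, 614, 1128, 1000.1, 435, 349.8 and 351 CPM, again highest in DN4 γδ−, so part of the spread among libraries was shared with cells that were added from another organ; its part in the thymocyte values was not tested. In DN3b γδ− and DN4 γδ− the non-cycling level lay inside the B-like interval (555 to 677 and 1015 to 1250 CPM). In DN3b γδ+ it lay below the B-like interval (888 to 1122 CPM). The non-cycling CPM was thus not above the B-like one in DN3b γδ−, DN4 γδ− and DN3b γδ+, and in the other 4 libraries it was. In the same 3 libraries B-like barcodes were shallower, with medians of 2415.5, 3294 and 3696 UMIs against 7658, 4438.5 and 7319 in non-cycling ones. Their median histone UMIs per barcode were 1, 4 and 3 against 4, 5 and 4 in non-cycling ones. The part of free RNA in either was not tested. In whole cells, the median cycling barcode held 7 histone UMIs for DN3a, 32 for DN3b γδ−, 62 for DN4 γδ−, 26 for DN3b γδ+, 18 for DN4 γδ+, 9 for Lat-/- DN3 γδ− and 8 for Lat-/- DN3 γδint.

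**Figure D1:**
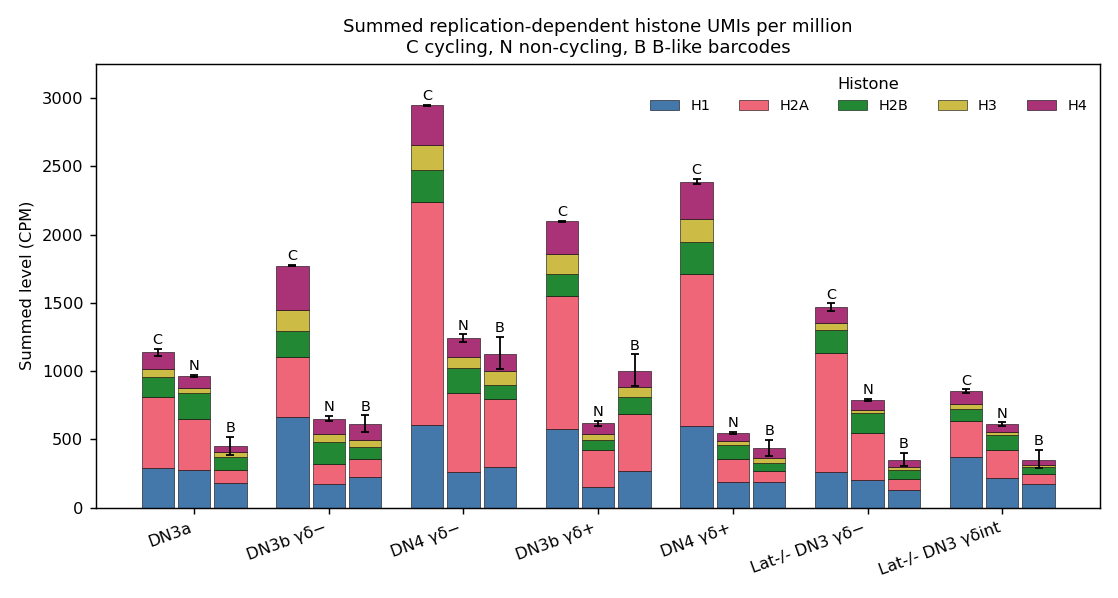
Summed CPM of the 67 histone genes in cycling (C), non-cycling (N) and B-like (B) barcodes of each library, stacked by histone class; error bars are 95% Poisson intervals of the total. Cycling bars run from 852 to 2944 CPM, and the H2A part is the one that differs most between DN3b γδ− (441 CPM) and DN4 γδ− (1634 CPM).

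The classes did not contribute equally. H2A genes gave 45.7% of the histone UMIs of cycling barcodes for DN3a, 24.9% for DN3b γδ−, 55.5% for DN4 γδ−, 46.5% for DN3b γδ+, 46.6% for DN4 γδ+, 59.4% for Lat-/- DN3 γδ− and 30.9% for Lat-/- DN3 γδint. The linker histone genes took the first place where H2A was low, with 37.4% in DN3b γδ− and 43.6% in Lat-/- DN3 γδint. H3 was the smallest class, at 36.6 to 181 CPM, and H4 lay at 93.7 to 323 CPM. These are shares of captured UMIs and not of histone mRNA, because 3′ capture depends on a tail. Genes of the Hist1 cluster gave 89.1% to 94.8% of histone UMIs in cycling barcodes and 74.3% to 92.2% in non-cycling ones, and the Hist3 pair went the other way, from 1.1% to 6.7% in cycling to 4.4% to 20.2% in non-cycling barcodes.

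The signal was spread unevenly over the members. The gene with the highest mean level was the H2A gene Hist1h2ap (chr13:21833026-21833507, minus strand), at 319 CPM for DN3a, 99.5 for DN3b γδ−, 1062 for DN4 γδ−, 521 for DN3b γδ+, 555 for DN4 γδ+, 655 for Lat-/- DN3 γδ− and 112 for Lat-/- DN3 γδint in cycling barcodes. It was high in DN4 γδ− and low in DN3b γδ− and Lat-/- DN3 γδint. Its non-cycling level followed the same order at the ends, with 188, 27.9, 359, 123, 40.3, 201 and 34.9 CPM. Of its 57-base windows, the length of the sequenced read, 93% also occur in other genes and 70.4% occur in Hist1h2ao. Reads of such windows do not tell these near copies apart. How they entered its count was not examined, so its level is uncertain.

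The linker histone gene Hist1h1b (chr13:21779883-21780625, minus strand) encodes H1.5 and shares no 57-base window with another gene. In cycling barcodes it stood at 93.7 CPM for DN3a, 399.8 for DN3b γδ−, 302 for DN4 γδ−, 314 for DN3b γδ+, 284 for DN4 γδ+, 115 for Lat-/- DN3 γδ− and 242 for Lat-/- DN3 γδint. Here DN3b γδ− was the highest and DN3a and Lat-/- DN3 γδ− the lowest, so the order was not that of Hist1h2ap. Neighbours in the order DN3b γδ−, DN3b γδ+, DN4 γδ−, DN4 γδ+, Lat-/- DN3 γδint, Lat-/- DN3 γδ−, DN3a all had intervals that did not overlap, which speaks to counting error and not to the spread between mice. Its non-cycling level was 41.2, 71.7, 84.6, 54.3, 13.1, 18.5 and 44.6 CPM against 4.88, 61.8, 114, 76.1, 13.4, 4.81 and 24.2 CPM in B-like barcodes, so in the wild-type libraries after DN3a and in Lat-/- DN3 γδint the non-cycling value lay within the interval of the B-like one.

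Hist1h2ae, an H2A gene with 40.4% of its windows shared, was measured at 90.7 CPM for DN3a, 129.8 for DN3b γδ−, 359 for DN4 γδ−, 272 for DN3b γδ+, 324 for DN4 γδ+, 78.6 for Lat-/- DN3 γδ− and 48.2 for Lat-/- DN3 γδint. It was high in DN3b γδ+ and both DN4 libraries and lowest in both Lat-/- libraries. The H4 gene Hist1h4d was highest in DN3b γδ−, with 42.6, 205, 120.3, 111, 106, 31.2 and 28.4 CPM in library order. Another linker histone gene, Hist1h1e, for H1.4, had 62.8, 138, 154, 154, 173, 32.3 and 33.5 CPM and was high in the 4 wild-type libraries after DN3a and low in the other 3; the annotated end of Hist1h1e lies inside Hist1h2be on the same strand (496 bases), so reads of the pair cannot be told apart there. Hist1h3c, the H3 gene with the highest median ratio of cycling over non-cycling level, had 6.36, 39.6, 59.2, 51.4, 51.4, 10.3 and 3.78 CPM, with the same 4 libraries at 39.6 to 59.2 CPM and the other 3 at 3.78 to 10.3 CPM.

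**Figure D2:**
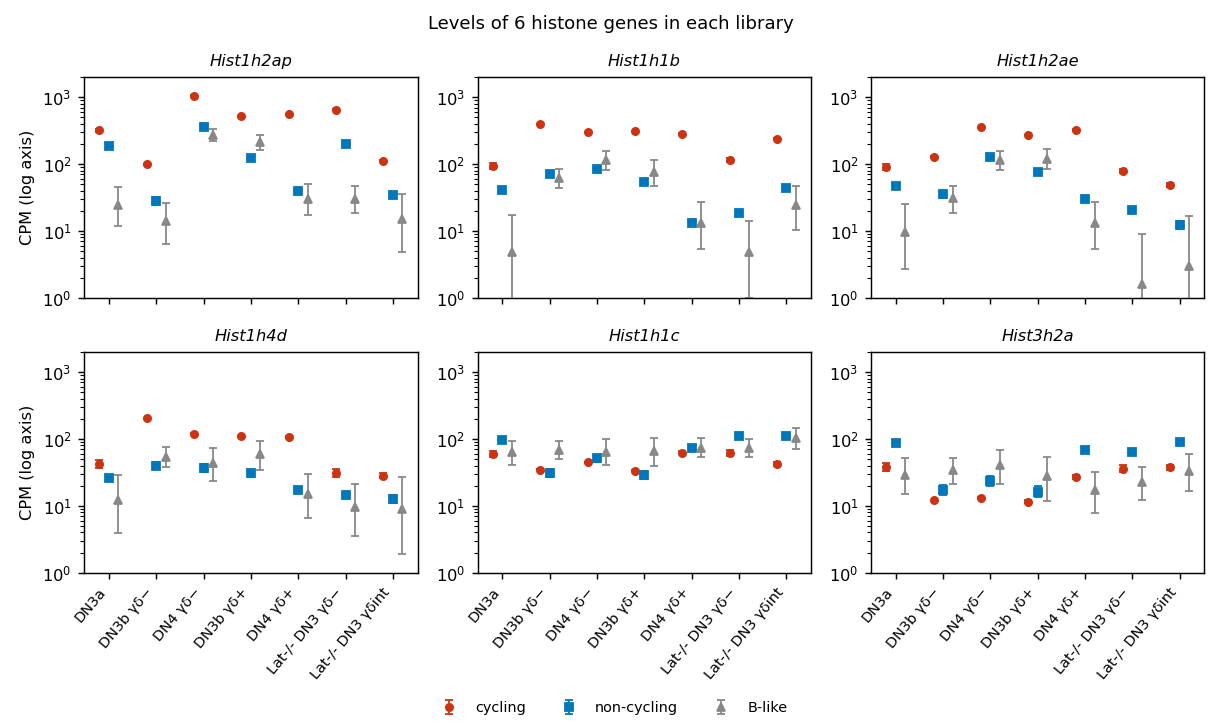
CPM on a log axis of 6 members in the cycling, non-cycling and B-like barcodes of each library, with 95% Poisson intervals, of which those reaching under 1 CPM end at the edge of the panel. For Hist1h2ap the 3 kinds of barcode are all highest in DN4 γδ−, for Hist1h1b the cycling points lie above the others in each library, and for Hist3h2a the non-cycling points lie above the cycling ones.

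Detection per barcode was compared after thinning every barcode to 4000 UMIs, since cycling barcodes were deeper. The cycling state called before thinning was kept here. The share of thinned cycling barcodes with Hist1h2ap was 44.5% for DN3a, 30.2 for DN3b γδ−, 88 for DN4 γδ−, 68.1 for DN3b γδ+, 55.8 for DN4 γδ+, 60.4 for Lat-/- DN3 γδ− and 30.5 for Lat-/- DN3 γδint. Unthinned, these shares were 72.1, 70.6, 98, 83.8, 70, 79.8 and 55.9%. Non-cycling barcodes gave 48.4, 8.76, 67.6, 37.1, 14, 49.8 and 12.4% and B-like barcodes 2.94, 7.41, 60, 40, 6.25, 14 and 0%, on 15 to 48 B-like barcodes that reached 4000 UMIs per library, with B-like medians of 2415.5 to 3696 UMIs before thinning. The non-cycling share in DN3b γδ+ was at or below that of B-like barcodes and is read as background, and those of DN3b γδ− and DN4 γδ− were close to it. In DN3a the cycling share of Hist1h2ap lay below the non-cycling one although its CPM was higher, so no order is read from the share there. Hist1h1b was found in 20.9, 64.7, 58.4, 54.8, 43.1, 20.7 and 44.1% of thinned cycling and 13.9, 23.7, 26.3, 13.6, 4.69, 6.41 and 16.3% of thinned non-cycling barcodes, against 5.88, 33.3, 33.3, 23.3, 4.17, 2.33 and 0% of B-like ones, and its cycling share was higher than its non-cycling share in each library. Its non-cycling shares in DN3b γδ−, DN4 γδ− and DN3b γδ+ lay below the B-like ones and are read as background too.

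Cycling barcodes had higher histone levels than non-cycling barcodes for most members, but DN3a showed little of it. A ratio was formed for a member with at least 20 UMIs over both sides, and counted where it passed 2-fold. With no UMI on 1 side the ratio was a bound, and a negative lower bound or a positive upper bound was dropped. In DN4 γδ+, 51 of 61 members with a ratio were at least 2-fold higher in cycling barcodes, compared with 8.02% of all features, with a median log2 ratio of 2.43. In DN3b γδ+ the count was 47 of 61 against 4.42% of features (median 1.59), in DN4 γδ− 37 of 61 against 2.93% (1.20), and in DN3b γδ− 36 of 63 against 3.57% (1.33). In these last 3 libraries the summed non-cycling CPM, on which the ratios rest, was not above the B-like one. Their non-cycling barcodes also held erythroid markers at 387 to 3401 CPM, and the part of such barcodes in the ratios was not tested. The Lat-/- libraries gave 29 of 52 against 5.21% (1.12) for DN3 γδ− and 23 of 46 against 5.71% (1.09) for DN3 γδint. DN3a stood apart with 10 of 56 against 5.44% and a median of 0.42. Among 65 DN3a barcodes of intermediate cell cycle position, described further on, it was 40 of 53 against 8.45% and a median of 1.75. That range was chosen after the histone level in it had been seen, so this count is no independent measure. Without the 8% of barcodes with the most UMIs in each library, which take many cycling barcodes along, DN3a gave 2 and Lat-/- DN3 γδ− 6 members, and with each barcode weighted equally DN4 γδ− gave 17 and DN3b γδ+ 30. The share of all features was not computed for these alternatives, so these counts have no rate to be set against. Members at least 2-fold lower numbered 2, 2, 1, 0, 1, 2 and 3 in library order, where 6.47%, 10%, 17.9%, 6.46%, 8.97%, 6.46% and 9.17% of all features were that much lower.

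The 8 members that passed 2-fold in all 7 libraries were Hist1h1b, Hist1h3c, Hist1h2bj, Hist1h2ab, Hist1h2bm, Hist2h2bb, Hist1h2af and Hist1h2ag, out of 45 with a ratio in every library, while 1.25% of 11239 features did so. Without DN3a the number was 16, and without Lat-/- DN3 γδint it was 9; leaving out any other library left it at 8. With each barcode weighted equally it was 1, and without the 8% of barcodes with the most UMIs it was 0. It was higher than 8 with cycling set at 5 UMIs and among barcodes of intermediate cell cycle position, with counts given further on. The share of all features was not computed for these settings. Of these 8 members, Hist1h1b shares no 57-base window with another gene. Shared windows made up 35.5% of Hist1h2bm, 43.9% of Hist1h3c, 52.6% of Hist2h2bb and 57% of Hist1h2bj. They made up 57.3% of Hist1h2ab, 77.3% of Hist1h2af and 78.6% of Hist1h2ag. How reads of such windows entered these counts was not examined. Hist1h3c had the highest median over the libraries, with 0.25, 11.4, 20.4, 10.9, 3.45, 0.201 and 0.187 CPM in non-cycling barcodes and log2 ratios of 4.67, 1.80, 1.53, 2.23, 3.90, 5.68 and 4.34. Those of DN3a and the Lat-/- libraries were the highest but rest on 10, 7 and 3 non-cycling UMIs, and the last has an interval of 2.72 to 6.66. Hist1h1b had log2 ratios of 1.18, 2.48, 1.84, 2.53, 4.44, 2.64 and 2.44 and the H2A gene Hist1h2af had 3.62, 2.88, 2.39, 2.13, 5.07, 3.33 and 2.92. Hist1h2ap and Hist1h2ae were likewise highest in DN4 γδ+, Hist1h2ap with 0.76, 1.84, 1.56, 2.09, 3.78, 1.70 and 1.68 and Hist1h2ae with 0.97, 1.87, 1.49, 1.81, 3.42, 1.92 and 1.98.

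**Figure D3:**
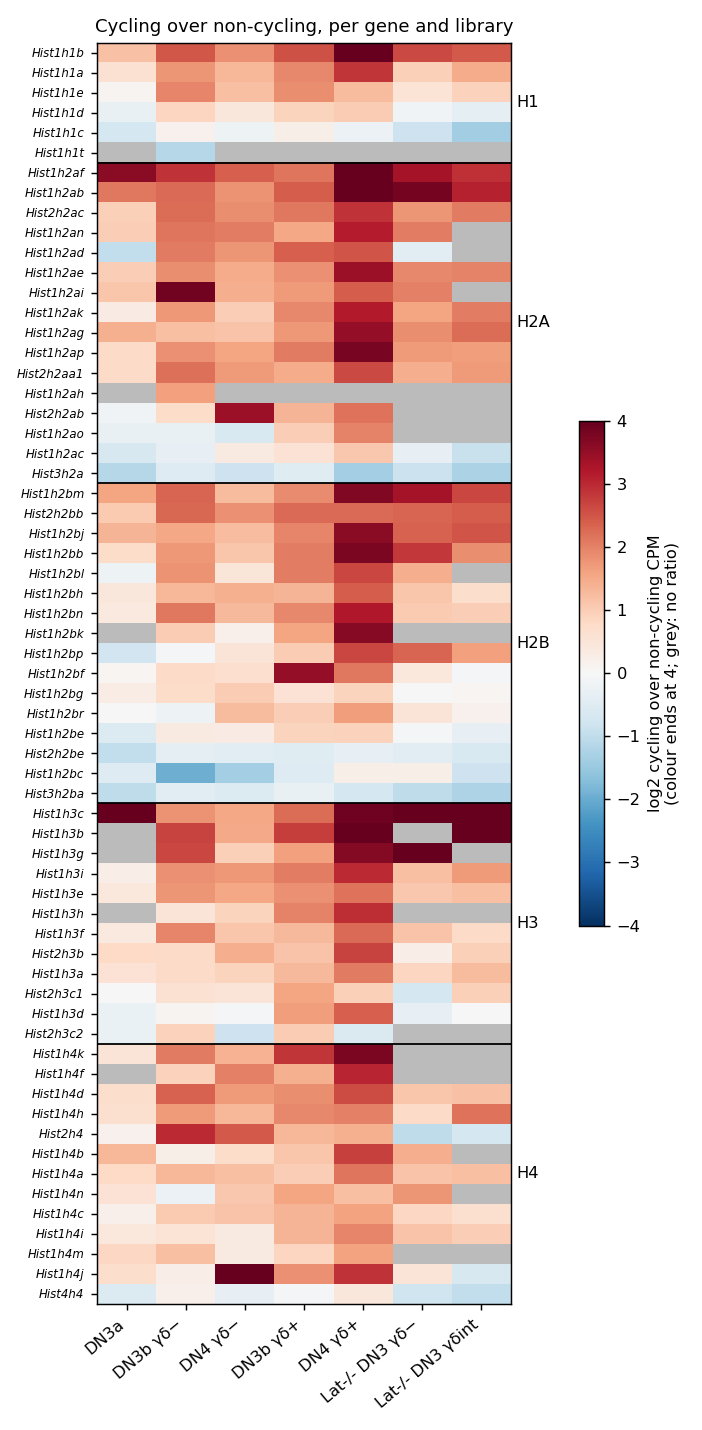
Log2 ratio of CPM in cycling over non-cycling barcodes for the 63 members with a ratio in at least 1 library (rows) in each of the 7 libraries (columns); the colour scale ends at 4 and grey marks pairs without a ratio. The DN4 γδ+ column is dark for most members, the DN3a column is pale for most, and Hist3h2a, Hist3h2ba and Hist2h2be are below 0 in every column.

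Some members were lower in cycling cells. Hist3h2a, an H2A gene outside the large cluster, stood at 38.7 CPM for DN3a, 12 for DN3b γδ−, 13.2 for DN4 γδ−, 11.6 for DN3b γδ+, 27 for DN4 γδ+, 36 for Lat-/- DN3 γδ− and 37.9 for Lat-/- DN3 γδint in cycling barcodes and at 85.6, 17.3, 23.6, 16.3, 69, 64.7 and 91.6 CPM in non-cycling ones. It was lower in cycling barcodes in 7 of 7 libraries, with log2 ratios of -1.14, -0.52, -0.84, -0.50, -1.35, -0.85 and -1.27. B-like barcodes had 29.3, 34, 40.2, 27.7, 17.2, 22.5 and 33.3 CPM. In DN3b γδ−, DN4 γδ− and DN3b γδ+ this lay above both kinds of thymocyte barcode, so the ratios there compare values that were not above the B-like ones. Whether the B-like level comes from free RNA or from the B cells' own transcripts was not tested. In the other 4 the non-cycling level lay above the B-like interval and the cycling level within it. Its thinned detection share was likewise lower, at 15.9, 4.55, 5.01, 4.61, 11.4, 13.3 and 14.2% against 28.3, 7.2, 8.4, 7.13, 22.1, 22.1 and 29.4%. Hist3h2ba, the H2B gene of the same cluster, gave -1.01, -0.46, -0.54, -0.31, -0.70, -1.02 and -1.23, and Hist2h2be gave -0.98, -0.37, -0.43, -0.50, -0.33, -0.42 and -0.62, with an interval that reached or passed 0 in 4 of the 7 libraries. These 3 were the only members below 0 in all 7 libraries, 3 of 45, where 27.6% of all features were so, and for Hist3h2a 653 windows are shared with the neighbouring gene Trim17.

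The linker histone genes fell apart into separate patterns. Hist1h1a and Hist1h1b, for H1.1 and H1.5, had median log2 ratios of 1.48 and 2.48, Hist1h1e for H1.4 had 1.21, Hist1h1d for H1.3 had 0.45 and Hist1h1c, for H1.2, had -0.24. Hist1h1c was present at 33.7 to 62 CPM in cycling and 28.7 to 110.5 CPM in non-cycling barcodes, and its ratio ran from -1.39 in Lat-/- DN3 γδint to 0.23 in DN3b γδ+. The testis H1 gene Hist1h1t had 89 UMIs in all thymocyte barcodes. Of H2B, Hist1h2bc was higher in non-cycling barcodes of DN3b γδ−, at log2 -1.95 (-2.08 to -1.82), and of DN4 γδ−, at -1.35 (-1.50 to -1.20), and slightly lower in those of DN4 γδ+ and Lat-/- DN3 γδ−. Non-cycling barcodes of DN3b γδ− and DN4 γδ− also held more erythroid markers than cycling ones, at 387 and 3401 CPM against 3.92 and 28.7 CPM. So did those of DN3b γδ+, at 679 against 2.54 CPM, where the Hist1h2bc ratio was -0.52. The part of such barcodes in these Hist1h2bc ratios was not tested. The single Hist4 gene, Hist4h4, had a median ratio of -0.32. The other 4 members, Hist2h2aa2, Hist1h2aa, Hist1h2ba and Hist1h2bq, had no ratio in any library, with 47, 28, 5 and 1 UMIs over all thymocyte barcodes. They had too few UMIs over both sides, or none on 1 side and a bound that did not reach its own direction.

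Within cycling barcodes the position in the cell cycle was read from the share of S phase gene UMIs (26 genes such as those of the MCM helicase and ribonucleotide reductase) among S phase and G2/M gene UMIs, and neither list holds a member. The summed histone level was low where the S share was 90% or more and high at intermediate shares. For shares of 20% to 80% the summed level was 3116 CPM for DN3a, 1892 for DN3b γδ−, 3087 for DN4 γδ−, 2603 for DN3b γδ+, 3286 for DN4 γδ+, 2361 for Lat-/- DN3 γδ− and 1089 for Lat-/- DN3 γδint. At 90% or more it was 471, 785, 1550, 422, 478, 504 and 317 CPM. The 7 libraries thus all had less histone transcript at shares of 90% or more than at intermediate ones. The share was not set against DNA content, so shares of 90% or more do not tell cells entering S phase from cells further into it. Counted by gene, 59 of 62 members in DN3b γδ+ were at least 2-fold lower at 90% or more than at 20% to 80% (5.21% of features), 54 of 58 in DN4 γδ+ (3.89%), 26 of 29 in DN3a (4.18%), 27 of 35 in Lat-/- DN3 γδ− (3.3%), 24 of 36 in Lat-/- DN3 γδint (3.12%), 37 of 63 in DN3b γδ− (3.53%) and 24 of 61 in DN4 γδ− (3.69%). A split at 60% and 40% of S share found 0 members at least 2-fold higher on the S side in any library, against 10.2%, 3.61%, 2.87%, 5.69%, 4.44%, 5.14% and 4.53% of features in library order, while 30 of 32, 2 of 63, 3 of 62, 8 of 62, 7 of 58, 17 of 39 and 11 of 38 members were at least 2-fold lower there, against 9.51%, 2.58%, 2.45%, 3.7%, 3.33%, 3.34% and 2.92% of features. The DN3a count rests on 17 barcodes at shares of 40% or less. The S share and the histone counts come from the same barcodes, and the range of 20% to 80% was chosen after the profile had been seen.

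**Figure D4:**
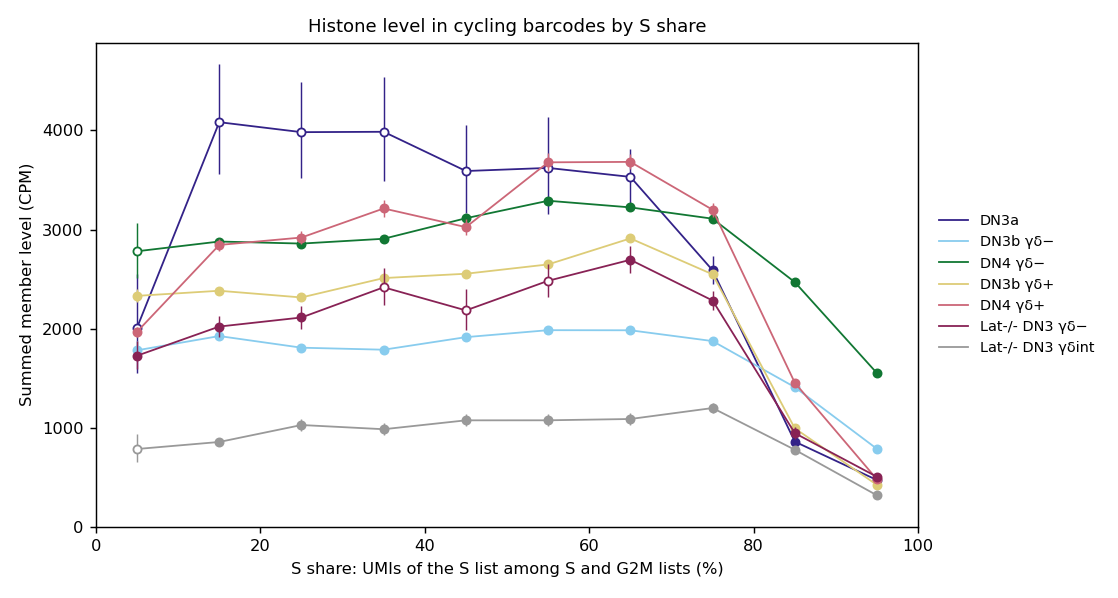
Summed histone CPM against the share of S phase UMIs, in bins of 10 percentage points, for the cycling barcodes of each library; bars are 95% Poisson intervals and open points are bins of fewer than 20 barcodes. Every line drops at the right end, to 317 to 1550 CPM at 90% or more, from 1089 to 3286 CPM over shares of 20% to 80%.

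Single members followed this profile to different degrees. In DN3b γδ+, Hist1h2ap had 555 CPM at S shares under 20%, 652 at 20% to 80%, 253 at 80% to 90% and 88.3 at 90% or more. Hist1h1b went from 278 and 402 to 149 and 48.7 CPM over the same steps, and Hist1h3c from 77.5 and 63.7 to 18.4 and 7.2 CPM. Hist3h2a was highest under 20%, at 34.3 CPM, and fell through 11.2 and 5.72 to 4.09 CPM. It too was lowest at shares of 90% or more, although all but the first of these values lie under the B-like level of 27.7 CPM. The exception was Hist1h2bc, which in DN3b γδ− stood at 29.1, 15.3, 27 and 32.4 CPM and in DN4 γδ− at 22.2, 21.3, 37.2 and 43.6 CPM. It was higher at 90% or more than at 20% to 80%.

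The ratio by cycling state went with the annotated 3′ end of the member. The polyadenylation signal AATAAA was searched for in the given strand between the stop codon and the end of the transcript model. It was present in 19 members, of which 18 had a ratio; taking each member's median over its libraries, the middle of the 18 was a log2 cycling ratio of 0.38, and 5 of the 18 had a median of at least 2-fold and 8 a median below 0. Of the 48 members without it, 45 had a ratio, with a median of 1.69; 36 of these were at least 2-fold and 3 below 0. By library, the medians with and without the signal were -0.50 and 0.61 in DN3a, 0.19 and 1.75 in DN3b γδ−, 0.45 and 1.29 in DN4 γδ−, 0.90 and 1.87 in DN3b γδ+, 1.03 and 2.72 in DN4 γδ+, -0.15 and 1.45 in Lat-/- DN3 γδ−, and -0.62 and 1.71 in Lat-/- DN3 γδint. The members with the signal lay lower in 7 of 7 libraries. All members that were at least 2-fold lower in cycling barcodes, in any library, carried it. Hist1h1c, Hist3h2a, Hist3h2ba and Hist2h2be are among those with the signal, and Hist1h1b, Hist1h2ap, Hist1h3c and Hist1h2af are among those without. The models of Hist1h1b and Hist1h2af have 0 and 1 bases after the stop codon and could not show it. Several members went the other way. Hist1h2ae, at 1.87, Hist1h2bh, Hist2h4, Hist1h4a and Hist1h2bp carry the signal and had medians of at least 2-fold. Hist1h2ao, Hist2h3c2 and Hist1h3d lack it and had medians below 0.

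Model length goes with the signal. It was held by 3 of the 29 members with some but fewer than 200 annotated bases after the stop codon. Of 2917 other protein-coding genes with models that short, 63% held it. Among the 25 members with 200 or more annotated bases after the stop codon, 16 (64%) held AATAAA, as did 83% of 18074 other protein-coding genes with models that long; the median log2 ratio was -0.24 with it (15 members with a ratio) and 1.05 without it (9 members). A ratio was had by 11 of the 13 members whose models end at the stop codon, with a median of 1.75, by 28 of the 29 with fewer than 200 bases after it, with a median of 1.70, and by 24 of the 25 long ones, with a median of 0.48. A missing signal says only that these letters are not in the model, and read placement beyond a short model was not analysed here.

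**Figure D5:**
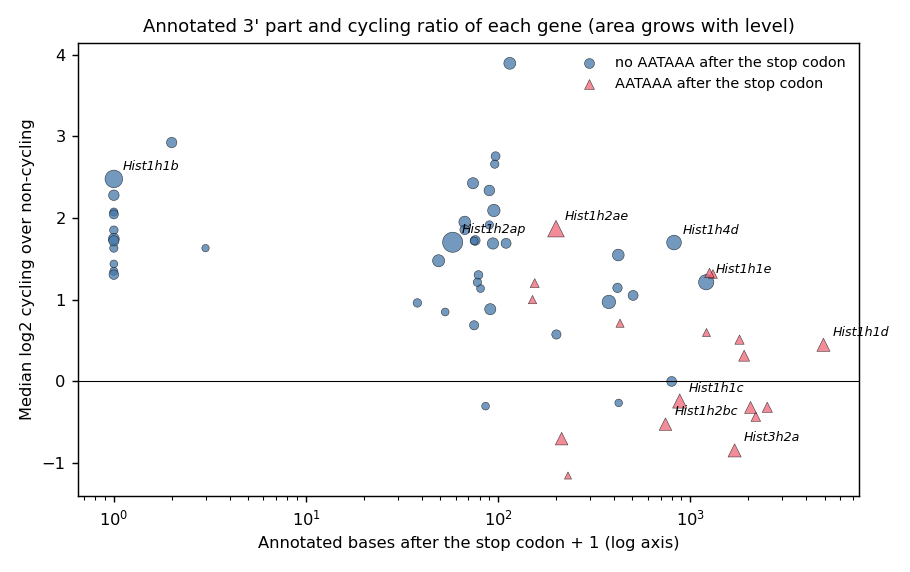
Median log2 ratio of cycling over non-cycling CPM over the libraries against the annotated bases after the stop codon plus 1 (log axis) for each member with a ratio; triangles mark members with AATAAA in that stretch and circles those without, and larger symbols stand for higher mean levels. Of the 11 members below 0, 8 are triangles, most of them at the right, and members with short models sit mostly above 1.

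The study's design orders the libraries from DN3a through the γδ− and γδ+ branches, and the cycling barcodes of neighbouring stages were compared. From DN3a to DN3b γδ−, the step taken by cells selected on a β chain, 29 of 62 members were at least 2-fold higher (4.3% of features) and 5 at least 2-fold lower (18%), with a median of 0.86. From DN3a to DN3b γδ+ it was 24 of 62 higher (6.97%) and 7 lower (16%), with a median of 0.68. For thinning to 4000 UMIs, shallower barcodes were left out and cycling state was called again on the thinned counts, so the cycling class changed too. The steps then had medians of 0.31 and 0.32. They gave 11 of 52 (7.11%) and 10 of 51 (8.75%) higher and 8 (18.4%) and 8 (15.8%) lower. With cycling set at 5 UMIs they gave 8 (3.72%) and 3 (6.03%) of 61 higher and 9 (14.2%) and 7 (13.6%) lower, with medians of -0.08 and -0.15. Hist1h3c was among the highest, at 3.02 (2.53 to 3.55) in the γδ+ branch, and Hist3h2a among the lowest in both, at -1.68 (-1.89 to -1.48) and -1.74 (-1.95 to -1.53). Hist1h2bk, at 2 UMIs in DN3a, headed both lists with 3.91 (2.05 to 6.95) and 3.54 (1.68 to 6.59).

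Among barcodes of intermediate S share the median member was lower and not higher in the DN3b libraries. Only 65 of the 321 cycling DN3a barcodes with a measured S share (20.2%) lay between 20% and 80%, with as few as 4 in a bin, compared with 71.1% in DN3b γδ− and 61.9% in DN3b γδ+. At shares of 20% to 80%, 4 of 58 members were at least 2-fold higher in DN3b γδ− than in DN3a (4.93% of features). There 17 were at least 2-fold lower (20.4%), and the median was -0.55 against -0.19 over all features. In DN3b γδ+ it was 2 of 58 higher (6.08%) and 11 lower (19.4%), so the share of lower members was near that of all features. The median was -0.37 against -0.15 over all features. Over all cycling barcodes, genes with longest transcripts under 500 bases had medians of -0.51 in DN3b γδ− and -0.67 in DN3b γδ+ over DN3a. Genes of 500 to 700 bases had -0.51 and -0.33, and the bins over 1000 bases -0.32 to -0.10 and -0.26 to -0.02. The part of transcript length was not tested. The range limits the S share but does not match it, since shares of 60% to 80% held 69.2% of these barcodes in DN3a, 40.4% in DN3b γδ− and 50.9% in DN3b γδ+. Hist1h1e went from log2 1.14 to -0.20 between all cycling barcodes and those of 20% to 80% for DN3b γδ− over DN3a, and Hist1h4i to -0.11.

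DN3b γδ+ and DN3b γδ− cells, the γδ and αβ branches at the same stage, differed little over most members: 2 of 65 were at least 2-fold higher in γδ+ (10.5% of features), 3 at least 2-fold lower (6.97%), and the median was -0.24. The 2 that were higher were Hist1h2ap, at log2 2.39 (2.37 to 2.41), and Hist1h2ae, at 1.07 (1.05 to 1.09), both H2A genes. Of the 3 lower ones, Hist2h4 had 348 UMIs in γδ+ and 1660 in γδ− (-1.40 (-1.57 to -1.23)), while Hist1h2aa and Hist2h2aa2 had 2 and 5 UMIs in γδ+. Hist1h2ap was also higher in γδ+ among non-cycling barcodes (2.14) and among B-like barcodes (3.92), and the part of free RNA in its difference was not tested.

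From DN3b γδ− to DN4 γδ−, 13 of 65 members were at least 2-fold higher (4.6% of features) and 2 lower (4.47%), with a median of 0.27. Hist1h2ap led with log2 3.42 (3.40 to 3.43), followed by the H4 gene Hist1h4m at 2.51 (2.19 to 2.85) and the H2B gene Hist1h2br at 1.95 (1.83 to 2.08). These genes and Hist1h4n, at 1.66, lie in 1 stretch of chromosome 13 made of near copies, an observation made after their values were seen, so reads of this stretch cannot be assigned with certainty to one of them. Hist1h2ap was also higher in non-cycling barcodes (3.69) and in B-like barcodes (4.29, interval 3.30 to 5.46), and the part of free RNA in its difference was not tested. Without Hist1h2ap the summed level was 818, 1671, 1882, 1574, 1832, 814 and 740.0 CPM in library order, so DN4 γδ− then stood above DN4 γδ+ by a smaller margin. From DN3b γδ+ to DN4 γδ+, 9 of 63 members were higher (11.1%) and 0 lower (4.24%), with a median of 0.43. Short transcripts as a whole were higher by a like amount in this step: the median log2 difference was 0.42 over 217 genes with longest transcripts under 500 bases and 0.29 over 313 genes of 500 to 700 bases, compared with 0.09 to 0.18 in the bins over 1000 bases, and its part in the members' difference was not tested. Hist1h4b at 1.71, Hist2h2be at 1.35 and Hist1h2bc at 1.29 led, and Hist1h1a and Hist1h1b were slightly lower at -0.17 and -0.14.

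Lat-/- DN3 γδ− cells had a median member near the level of wild-type DN3a cells over all cycling barcodes and a lower one at intermediate S shares. Over cycling barcodes 4 of 46 members were at least 2-fold higher (7.08% of features), 3 at least 2-fold lower (2.44%), and the median was 0.02. Hist1h2ac, an H2A gene, was higher at 1.26 (0.90 to 1.63) and Hist1h2ap at 1.04 (0.96 to 1.12), while the H4 genes Hist1h4a and Hist1h4h were lower at -1.56 (-2.70 to -0.51) and -1.18 (-1.66 to -0.70). At S shares of 20% to 80%, 1 of 39 members was higher (7.46%) and 14 were lower (2.39%), with a median of -0.66, on 170 Lat-/- and 65 DN3a barcodes, of which 50% and 69.2% lay at 60% to 80%. Over all cycling barcodes short transcripts were lower in this comparison, with medians of -0.25 over 48 genes under 500 bases and -0.14 over 139 genes of 500 to 700 bases against 0.15 to 0.28 in the bins over 1000 bases, and their part was not tested.

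Lat-/- DN3 γδint cells, which carry an intermediate level of γδ receptor, had a lower median member than Lat-/- DN3 γδ− cells in cycling barcodes, although a larger share of them cycled. Over all thymocyte barcodes the median member was at log2 -0.26, and without Hist1h2ap the summed level was 639 CPM in γδint and 623 CPM in γδ−. Of 50 members in cycling barcodes, 18 were at least 2-fold lower (4.76% of features) and 2 higher (2.72%), with a median of -0.76, and at S shares of 20% to 80% 21 of 42 were lower (4.49%) and 0 higher (3.25%), with a median of -0.997. Thinned to 4000 UMIs, with cycling called again, it was 7 of 29 lower (4.5% of features) and 1 higher (5.49%). The median was then -0.54. Without the 8% of barcodes with the most UMIs 5 members were lower and 4 higher, so the count depends on the deepest barcodes. The share of all features was not computed for that setting. Hist1h2ap was lower at -2.55 (-2.63 to -2.47), and Hist1h1b went the other way at 1.07 (0.97 to 1.18). Hist2h3c1 was the other member counted as higher, on 28 and 6 UMIs. The linker histone class as a whole was at 371 CPM in γδint and 264 CPM in γδ−, a difference that rests on Hist1h1b: of the other H1 genes with a ratio, Hist1h1a was at 0.41, Hist1h1e at 0.05, Hist1h1d at -0.37 and Hist1h1c at -0.56. Short transcripts moved with the histones between these libraries. The median log2 difference was -1.15 over 58 genes with longest transcripts under 500 bases, -1.23 over 147 genes of 500 to 700 bases and -0.37 from 700 to 1000 bases, compared with 0.14 to 0.29 for the longer bins. In B-like barcodes, which were added from spleen, it was -1.76 over 15 and -1.31 over 62 genes in the first and second bins. Most replication-dependent histone transcripts are short, and the part of transcript length in the lower histone level was not tested.

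In non-cycling barcodes the median member went the other way than in cycling ones for the steps from DN3a to either DN3b library, at -0.35 and -0.64, and from DN3b γδ+ to DN4 γδ+, at -0.49. It kept its sign from DN3b γδ− to DN4 γδ− (0.47), between the DN3b libraries (-0.32) and between the Lat-/- libraries (-0.34). From DN3a to Lat-/- DN3 γδ− it was at -0.76, against 0.02 in cycling barcodes. The summed non-cycling CPM of DN3b γδ−, DN4 γδ− and DN3b γδ+ was not above that of B-like barcodes. No direction is therefore read from the steps among these 3 libraries. Steps that reach one of them from another library have such a level on one side. Nor are the non-cycling classes alike in their other S phase genes: 23 of the 26 on the S phase list were at least 2-fold higher in non-cycling DN3b γδ− than in non-cycling DN3a barcodes (median 1.87) and 24 in DN3b γδ+ (2.11), and 26 were at least 2-fold lower from DN3b γδ+ to DN4 γδ+, so non-cycling barcodes cannot be taken as resting cells in every library. Toward DN3b γδ− from DN3a, 11 of 57 members were higher (6.91%) and 15 lower (15.7%), and toward DN3b γδ+ 4 of 56 were higher (9.51%) and 21 lower (18.5%). Hist3h2a, Hist3h2ba and Hist1h1c were among the lower ones; Hist3h2a had 85.6 CPM in non-cycling DN3a barcodes and 17.3 and 16.3 CPM in those of DN3b γδ− and DN3b γδ+. It was high again in DN4 γδ+, at 69 CPM, and in both Lat-/- libraries, at 64.7 and 91.6 CPM. The libraries with a high non-cycling Hist3h2a level were the 4 in which most thymocyte barcodes did not cycle. From DN3b γδ− to DN4 γδ− 9 of 45 members were higher (5.39%) and 1 lower (3.23%), from DN3b γδ+ to DN4 γδ+ 8 of 50 were higher (18.8%) and 12 lower (10.6%), and DN3b γδ+ had 4 of 42 higher (7.59%) and 4 lower (6.5%) than DN3b γδ−. Lat-/- DN3 γδ− had 22 of 55 members lower than DN3a (3.56%) and 2 higher (5.3%). Short transcripts were lower there too, with medians of -0.38 over 170 genes under 500 bases and -0.16 over 279 genes of 500 to 700 bases against 0.20 to 0.31 in the bins over 1000 bases, and of -0.56 and -0.27 in B-like barcodes. From DN3a to DN3b γδ− and DN3b γδ+ the genes under 500 bases were at -0.62 and -0.77, and the part of transcript length was not tested. Lat-/- DN3 γδint had 13 of 48 lower than Lat-/- DN3 γδ− (4.36%) and 1 higher (3.39%). Non-cycling barcodes with under 2 UMIs of T cell genes made up 0.1% to 23.2% of the class, with the highest share in DN4 γδ−.

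Many H2A and H2B genes lie head to head and share the stretch between their starts. In 12 such pairs of the annotation, 175 to 305 bases separate the starts, and the levels of the partners were far apart in several. Averaged over the 7 libraries, cycling barcodes had 475 CPM of Hist1h2ap and 4.96 CPM of its H2B partner Hist1h2br, a ratio of 95.6. Hist1h2ae stood at 186 CPM and Hist1h2bg at 4.59 CPM, a ratio of 40.6, and Hist2h2ac at 38.4 CPM and Hist2h2be at 4.28 CPM, a ratio of 8.97. In the other direction, Hist1h2ag had 8.49 CPM and Hist1h2bj 29.5 CPM. These values count captured molecules, and partners can differ in how often a tail is present. Of the 57-base windows of Hist1h2br, 88.1% occur in other genes and 88% in Hist1h2bq. Reads of such windows do not tell these genes apart and may be missing from its count. The interval between Hist1h2ap and Hist1h2br is shown with the 250 bases upstream of Hist1h1b, the leading linker histone gene, from the GRCm38 promoter set of RefSeq; capitals mark CCAAT on either strand and TATAAA on the strand shown. The first is chr13:21833508-21833742, plus strand, and the second chr13:21780626-21780875, minus strand.
Hist1h2ap to Hist1h2br: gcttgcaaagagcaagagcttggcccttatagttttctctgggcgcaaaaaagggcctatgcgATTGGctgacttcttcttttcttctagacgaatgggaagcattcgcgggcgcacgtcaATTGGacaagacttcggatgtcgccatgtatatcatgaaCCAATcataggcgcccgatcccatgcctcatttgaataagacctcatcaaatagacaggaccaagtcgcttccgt
Hist1h1b upstream: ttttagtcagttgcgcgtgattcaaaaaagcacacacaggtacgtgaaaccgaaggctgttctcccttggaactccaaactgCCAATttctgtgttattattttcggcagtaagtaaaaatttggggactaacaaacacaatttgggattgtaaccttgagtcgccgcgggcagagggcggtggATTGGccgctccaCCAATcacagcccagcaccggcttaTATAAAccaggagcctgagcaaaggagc
In promoter windows of 250 bases before to 50 bases after the start, found for 62 of the 67 members (63 windows, as Hist1h2be has 2), CCAAT on either strand was present in every H1, H2A, H2B and H3 promoter and in 3 of 12 H4 promoters (25%), while 37.4% of 32851 promoters held it. ATTTGCAT, the octamer known from H2B promoters, was found on either strand in 7 of 17 H2B and 7 of 18 H2A promoters and in 0 of those of the other classes, against 1.74% of all promoters. Among H2A and H2B genes, the median log2 cycling ratio was 1.74 with the octamer (12 members) and 1.66 without (18).

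Genes of other histones gave lower medians than the members in all 7 libraries. Genes of histone mRNA processing and transcription did so in 6 of the 7, all but DN3a. Of 11 replication-independent histone genes, most of which encode variants with polyadenylated mRNAs, such as H2A.Z, 1 to 5 were at least 2-fold higher in cycling barcodes across the 7 libraries, with medians of 0.23 to 0.95. H2afx, for H2A.X, which is known to make a stem-loop-ended mRNA as well as a polyadenylated one and so fits the list only in part, had log2 ratios from 0.84 in DN3a to 3.05 in DN4 γδ+, and H1f0, the linker histone of resting cells, stood at -1.07 to 0.65. Slbp, which is also on the S phase list, had 1.74, 0.50, 0.57, 0.50, 1.87, 1.76 and 1.61 in library order, so it was highest in DN4 γδ+ and also high in DN3a and both Lat-/- libraries, whose histone medians were the lowest 3, and 0 to 3 of the 13 histone mRNA processing and transcription genes counted passed 2-fold. Of the 11 histone chaperone genes 1 to 8 passed, and Asf1b gave 1.28 to 4.12. Of the 26 genes of the S phase list, 25 were at least 2-fold higher in cycling barcodes of DN3a, 26 in DN4 γδ+, 24 in Lat-/- DN3 γδ− and 20 in Lat-/- DN3 γδint, where 10, 51, 29 and 23 histone genes passed, compared with 4 to 6 in DN3b γδ−, DN4 γδ− and DN3b γδ+, where 36, 37 and 47 histone genes passed.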

How the data were processed

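Each library was 1 pool of sorted thymocytes with added splenic B cells, run on 10x 3′ v3 chemistry and sequenced with a 57-base cDNA read. The deposited files hold UMI counts per gene and barcode, made by the authors with Cell Ranger (version 5.0.1 in the submitters' processing notes, 4.0.0 in the matrix headers) on mm10 with an added GFP feature; the notes also list Seurat 3.1.5 and R 3.6.3. The members, lists and thresholds used here were chosen with earlier results of these data known. Groups came from the sample titles.

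Counts were read with pandas 2.3.3, numpy 2.4.6 and scipy 1.17.1 under Python 3.11.15 and drawn with matplotlib 3.10.9. Barcodes with fewer than 200 genes or more than 15% mitochondrial UMIs were dropped. UMIs were summed per library and class and scaled to CPM over all features; no length scaling was made, since a molecule is counted once. B-like barcodes had at least 10 UMIs of Cd79a, Cd79b and Ms4a1 and at most 2 of Cd3d, Cd3e, Cd3g and Lck. A ratio needed 20 UMIs over both sides, a side with none being set to 3 counts, which makes a bound. A lower bound that was negative, or an upper bound that was positive, gave no ratio. S shares needed 10 UMIs. Intervals are exact (Poisson, Clopper-Pearson, conditional binomial). TMM factors (edgeR 4.0.16, R 4.3.3) were an alternative scaling. The ratio code was tested on simulated data. Doublets were not called; dropping the 8% deepest barcodes stood in for that. Depth was 1119448954 UMIs over 90016 barcodes.

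The genes named were the 15 with the highest mean CPM, the 3 highest and 3 lowest in each comparison, all H1, Hist3 and Hist4 genes, and Hist1h2ap, Hist1h1b, Hist1h4d and Hist1h2ae; other members named were chosen after their values were seen. Transcript models were GENCODE vM21 and promoters RefSeq, both GRCm38. The authors' annotation may differ from vM21.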

Additional observations from a re-analysis of the deposited data

Results flagged for a closer look

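The ratio of cycling over non-cycling barcodes lay on different sides of 0 in different libraries for 5 members, with intervals that did not include 0 on either side. The difference between libraries was not tested, because each is 1 library. Hist2h4, an H4 gene, was at log2 2.97 in DN3b γδ− (5 non-cycling UMIs) and at -1.01 in Lat-/- DN3 γδ− (12 cycling UMIs). Hist1h1d, for linker histone H1.3, was at 1.03 in DN4 γδ+ and at -0.36 in Lat-/- DN3 γδint. Hist1h2ac, an H2A gene, was at 1.08 in DN4 γδ+ and at -0.88 in Lat-/- DN3 γδint. Its H2B neighbour Hist1h2bc was at 0.25 in Lat-/- DN3 γδ− and at -1.95 in DN3b γδ−. Hist1h1c, for H1.2, was at 0.23 in DN3b γδ+ and at -1.39 in Lat-/- DN3 γδint. For Hist1h2bc the higher of the values was in a Lat-/- library, and for the other 4 members the lower one was.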

How the results depend on the processing

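Of the counts of members recomputed under the alternatives, 147 stayed within 1.5 times the reported count and 51 did not; the cause of a change was not tested. Percentages in brackets are shares of all features under the same setting. With cycling set at 5 UMIs of Mki67 and Top2a, DN3a gave 36 of 55 members higher in cycling barcodes (10.3%) and 22 members passed in all 7 libraries. DN3b γδ− over DN3a gave 8 higher (3.72%) and 9 lower (14.2%), and DN3b γδ+ over DN3a 3 higher (6.03%). Lat-/- DN3 γδ− over DN3a gave 1 higher (10.4%) and 9 lower (2.37%), and γδint over γδ− 1 higher (3.12%). At S shares of 20% to 80%, chosen after seeing the data, the cycling counts were 40 for DN3a (8.45%) and 22 for all 7 libraries. The steps gave, in the same order, 4 higher (4.93%) and 17 lower (20.4%), 2 higher (6.08%) and 11 lower (19.4%), 1 higher (7.46%) and 14 lower (2.39%), and 0 higher (3.25%). DN4 γδ+ over DN3b γδ+ gave 5 higher (7.85%) and 1 lower (3.93%). Thinning to 4000 UMIs, with cycling called on the thinned counts, gave 19 for DN3a (6.67%) and 15 for Lat-/- DN3 γδint (5.23%). DN3b γδ− over DN3a then gave 11 higher (7.11%) and 8 lower (18.4%), and DN3b γδ+ over DN3a 10 higher (8.75%). DN4 γδ− over DN3b γδ− gave 1 lower (4.2%) and DN4 γδ+ over DN3b γδ+ 1 lower (4.34%). Lat-/- DN3 γδ− over DN3a gave 1 higher (9.41%), and γδint over γδ− 1 higher (5.49%) and 7 lower (4.5%). Without the 8% deepest barcodes there were 2 for DN3a, 6 for Lat-/- DN3 γδ− and 0 for all 7 libraries; DN3b γδ− over DN3a gave 10 lower, Lat-/- DN3 γδ− over DN3a 1 higher and 5 lower, and γδint over γδ− 4 higher and 5 lower. Equal weight per barcode gave 6 for DN3a, 17 for DN4 γδ−, 30 for DN3b γδ+ and 1 for all 7 libraries; 8 lower for DN3b γδ− over DN3a, 1 higher for DN3b γδ+ over DN3b γδ−, and 5 lower for Lat-/- DN3 γδ− over DN3a. TMM scaling gave 4 higher for DN4 γδ+ over DN3b γδ+, 1 higher and 6 lower for Lat-/- DN3 γδ− over DN3a, and 1 higher for γδint over γδ−. No minimum of UMIs gave 7 higher and 6 lower for Lat-/- DN3 γδ− over DN3a and 5 higher for γδint over γδ−. Where no percentage stands beside a count, the share of all features was not computed.

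Of the log2 ratios of named members, 4117 stayed within their interval, 1021 moved beyond it, and 17 that had passed 2-fold changed sign. With equal weight per barcode, Hist1h4m was at -0.20 (cycling over non-cycling, DN3b γδ−) and Hist1h3h at -0.13 (DN3b γδ+). For DN3b γδ− over DN3a, cycling at 5 UMIs gave Hist1h2af -0.0106, Hist1h2ab -0.35 and Hist1h3b -0.44, S shares of 20% to 80% gave Hist1h4i -0.11, Hist1h2af -0.25, Hist1h1e -0.20, Hist1h2ab -0.85 and Hist1h3b -0.87, and thinning gave Hist1h3b -0.10. For DN3b γδ+ over DN3a, cycling at 5 UMIs gave Hist2h2be 0.62, Hist1h2ab -0.0753 and Hist1h3b -0.0555, and S shares of 20% to 80% gave Hist1h2ab -0.42 and Hist1h3b -0.33. Without the deepest barcodes Hist1h3c was at 0.10 for γδint over γδ−. Alternatives that left both sides of a member at the floor gave no value. No paired analysis was possible because each group has 1 library, and no leaving out of replicates for the same reason. Depth limits the cycling DN3a and Lat-/- classes, of 420 to 1228 barcodes, where 46 to 56 of the 67 members had a ratio.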
